A study of Mus musculus with 24 samples.

Results

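The genes described here are 43 mouse genes of DNA replication and nucleotide synthesis, taken from the table of normalized read counts by gene symbol. All 43 were among the 23479 genes of the table, and all 43 passed the filter on low counts in every fit. They fall into 8 roles: 5 origin licensing genes (Orc1, Orc6, Cdc6, Cdt1, Gmnn), the 6 subunits of the MCM helicase (Mcm2 to Mcm7), 6 genes that activate the helicase (Mcm10, Cdc45, Gins1 to Gins4), 6 polymerase and primase subunits (Pola1, Prim1, Prim2, Pold1, Pole, Pole2), 7 genes of the sliding clamp, its loader and strand maturation (Pcna, Rfc3, Rfc4, Rfc5, Rpa2, Fen1, Lig1), 5 deoxynucleotide enzymes (Rrm1, Rrm2, Tyms, Tk1, Dut), 3 regulators of the G1 to S transition (E2f1, Ccne1, Ccne2) and 5 genes that copy chromatin and DNA methylation (Uhrf1, Dnmt1, Chaf1a, Chaf1b, Slbp). After lymphodepleting chemotherapy 42 of them rose in monocytic suppressor cells labelled WT and 34 in those labelled KO, where 9.52% and 6.11% of all tested genes were called higher, and 16 rose in granulocytic suppressor cells labelled WT (4.14%) and none in those labelled KO (0%).

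A cell copies its genome once per division, in S phase. The origin recognition complex, Cdc6 and Cdt1 load the MCM ring onto origins in G1, geminin (Gmnn) holds Cdt1 back afterwards, and Cdc45, the GINS complex and Mcm10 turn the loaded ring into a working helicase. Polymerase alpha with primase starts each strand, polymerases delta and epsilon extend it on the PCNA clamp, and ribonucleotide reductase and thymidylate synthase supply the deoxynucleotides. Transcription of many of these genes is driven by E2F factors once cyclin E and its kinase act, so their RNA is widely read as a sign of cycling cells. Myeloid cells divide as progenitors in bone marrow and, when haematopoiesis moves there, in spleen, while mature neutrophils have left the cycle.

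Myeloid-derived suppressor cells (MDSCs) are monocytic (M-MDSC) or granulocytic (PMN-MDSC) cells that accumulate in tumour-bearing mice. They were sorted from spleen by flow cytometry, with a labelled purity above 99%, in 8 groups of 3 libraries. Every mouse carried a B16 melanoma larger than 25 mm2; the mice were C57BL/6 (genotype label WT) or B6.129S2-Il6tm1Kopf/J (label IL-6KO, written KO here), a germline strain in which every cell carries the disrupted Il6 allele, and were either untreated or lymphodepleted with cyclophosphamide and fludarabine, with spleens taken 7 days after treatment. The groups were thus M-MDSCs and PMN-MDSCs of untreated WT, lymphodepleted WT, untreated KO and lymphodepleted KO mice, and no group was free of tumour. The study design gives 3 mice for each of the first 3 of these 4 conditions and no number for lymphodepleted KO mice, and the labels do not say whether both cell types came from the same spleens. Total RNA (100 ng) was sequenced after probe-based removal of ribosomal RNA, and libraries are named below by group and number, for example KO untreated M-MDSC 003.

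The M-MDSC libraries held 7237462 to 11193088 reads assigned to genes and the PMN-MDSC libraries 3249647 to 9999731. Of these reads, Rn45s, the precursor of ribosomal RNA, took 6.07% to 19.8% and 2.94% to 18.0%. Shallow depth touched the members mostly in PMN-MDSCs, where 19 members had a library with fewer than 10 reads and 7 (Gins1, Gins2, Prim1, Pole2, Rfc3, Rfc4, Ccne2) a library with no read. In M-MDSCs 8 members had a library with fewer than 10 reads and no member had one without a read. Il6 reads ran against the genotype labels: the WT-labelled libraries held 0 to 3.87 normalized counts of Il6 in M-MDSCs and 0 to 7.20 in PMN-MDSCs, against 16.2 to 45.3 and 64.5 to 219.7 under the KO label. Directions between genotypes are therefore given as between labels. The summed level of 6 monocyte markers was 39402 to 60554 in M-MDSCs and 2177 to 5805 in PMN-MDSCs, and that of 6 neutrophil markers 513 to 19607 and 43468 to 155129; the neutrophil marker Ly6g was not analysed here. These are bulk samples, so more cells of a cycling type and more RNA per cell cannot be told apart.

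Some promoter letters, which the choice of genes did not use, were more frequent in the members than in all symbols. Of 43 members, 35 had an entry in the RefSeq promoter table (GRCm38.p6; no entry was matched for Gins4, Gmnn, Prim2, Gins1, Mcm4, Pole, Ccne2 and Gins2). A symbol with several promoters counted as a match if any of them matched, and all symbols were not limited to genes expressed here. In the 250 bases before the start, a stretch of E2F-type letters (TTTCCCGC, TTTCGCGC, TTTGCCGC or TTTGGCGC, on either strand) was found in 10 of 35 members (28.6%), namely Orc1, Cdc6, Mcm5, Mcm6, Mcm7, Gins3, Pola1, Rfc3, Uhrf1 and Dnmt1, against 2.16% of the 27025 symbols of the table. CCAAT on either strand was found in 60% of the members against 37.5% of all symbols, and the GC box GGGCGG in 68.6% against 35.4%. The letters TTTGAA or TTCGAA, those of the element called CHR that marks many genes of mitosis, were as frequent in the members (20%) as in all symbols (19.6%). The windows of 5 members are shown, all of which rose with lymphodepletion in WT-labelled M-MDSCs, as did 42 of the 43. Mcm5, Mcm6 and Pola1 hold both E2F-type letters and CCAAT. Mcm10 and Slbp, whose changes in WT-labelled M-MDSCs lay near opposite ends of the members' range, hold CCAAT without E2F-type letters. Each is written 5′ to 3′ on the gene's strand and ends at the base before the RefSeq start. Capitals mark the E2F-type letters and CCAAT or its reverse complement ATTGG; where E2F-type letters on both strands overlap, the capitals run on.
Mcm5: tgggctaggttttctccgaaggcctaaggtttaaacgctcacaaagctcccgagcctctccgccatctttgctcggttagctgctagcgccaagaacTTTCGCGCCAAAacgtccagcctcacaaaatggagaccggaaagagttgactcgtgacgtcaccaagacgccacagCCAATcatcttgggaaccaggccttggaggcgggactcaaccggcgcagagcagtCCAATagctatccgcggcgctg
Mcm6: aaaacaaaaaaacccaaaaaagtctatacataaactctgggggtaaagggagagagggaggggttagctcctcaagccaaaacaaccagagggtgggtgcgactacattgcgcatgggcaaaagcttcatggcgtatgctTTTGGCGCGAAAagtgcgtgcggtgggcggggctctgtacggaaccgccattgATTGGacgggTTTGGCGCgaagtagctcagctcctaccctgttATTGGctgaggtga
Pola1: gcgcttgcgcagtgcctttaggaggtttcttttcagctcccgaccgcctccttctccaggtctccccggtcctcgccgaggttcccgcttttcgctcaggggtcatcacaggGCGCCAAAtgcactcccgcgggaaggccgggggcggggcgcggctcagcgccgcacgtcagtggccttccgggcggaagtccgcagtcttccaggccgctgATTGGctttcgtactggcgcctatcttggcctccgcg
Mcm10: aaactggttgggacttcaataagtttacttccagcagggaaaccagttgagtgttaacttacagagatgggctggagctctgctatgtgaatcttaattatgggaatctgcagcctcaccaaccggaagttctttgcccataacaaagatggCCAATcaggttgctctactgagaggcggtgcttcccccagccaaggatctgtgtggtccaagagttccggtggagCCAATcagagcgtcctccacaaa
Slbp: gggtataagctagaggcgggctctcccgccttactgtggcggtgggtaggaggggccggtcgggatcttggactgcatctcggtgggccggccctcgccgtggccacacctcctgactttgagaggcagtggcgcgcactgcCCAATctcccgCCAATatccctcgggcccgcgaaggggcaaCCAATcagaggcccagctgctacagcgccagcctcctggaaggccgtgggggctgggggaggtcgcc
The windows lie at chr8:75109259-75109508 (plus strand), chr1:128359706-128359955 (minus), chrX:93632156-93632405 (minus), chr2:5012792-5013041 (minus) and chr5:33652575-33652824 (minus). Members with and without E2F-type letters had overlapping changes with lymphodepletion: in WT-labelled M-MDSCs the median log2 difference was 2.56 in the 10 with a match (range 1.36 to 4.12) and 2.28 in the 25 without (range 0.84 to 4.43). In WT-labelled PMN-MDSCs the medians were 1.57 and 1.70. The E2F-type letters of Uhrf1 lay in its listed promoter 2 and those of Dnmt1 in its listed promoter 3. A match of letters is a description of the window and does not show that a factor binds there.

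Summed over the 43 members, normalized counts were 4123 to 4701 in untreated WT-labelled M-MDSCs and 15197 to 22925 after lymphodepletion. Under the KO label the M-MDSC sums were 5099, 6120 and 12147 untreated and 14102 to 27644 after lymphodepletion. PMN-MDSC sums were 3493 to 4209 and 8025 to 13003 under the WT label, and 3032 to 5550 and 4471 to 8070 under the KO label. The untreated and lymphodepleted ranges were apart in 3 of these 4 pairs and overlapped in KO-labelled PMN-MDSCs. A set of 12 mitosis genes (Mki67, Top2a, Cdk1 and others), which act after S phase, spanned a wider range: the members' sum was 4.87 to 5.32 times the mitosis sum in untreated WT-labelled M-MDSCs and 0.858 to 0.953 times after lymphodepletion. In WT-labelled PMN-MDSCs the same ratio was 2.17 to 2.73 untreated and 0.436 to 1.0099 lymphodepleted.

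**Figure D1:**
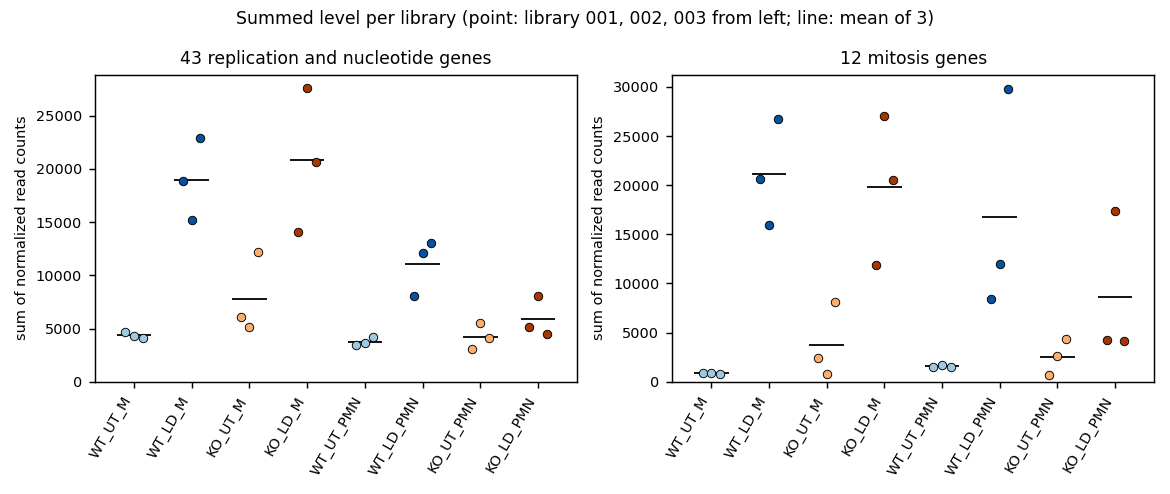
Summed normalized counts of the 43 members and of 12 mitosis genes in each of the 24 libraries. Points are libraries and the line is the mean of 3. WT-labelled M-MDSC sums of the members lie at 4123 to 4701 untreated and 15197 to 22925 after lymphodepletion, and 1 untreated KO-labelled M-MDSC library lies at 12147.

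Lymphodepletion raised most members in M-MDSCs under both labels. Of 43 members, 42 rose under the WT label, where 9.52% of the 11570 genes tested were called higher, and all 3 lymphodepleted libraries lay above all 3 untreated ones for 42 members, against 16.9% of all genes. The members' median log2 difference was 2.28 (range 0.05 to 4.43) against −0.07 over all genes tested. Under the KO label 34 members rose (6.11% of all genes were called higher), 32 without overlap (13.7% of all genes), with a median of 1.58 against −0.02. No member fell under either label. Genes were called by limma on log2(normalized count + 1) at an adjusted p below 0.05, differences below are on that log2 scale with their standard error (SE), and each group has n = 3. The KO-labelled count rested on few libraries: 11 members were called without KO lymphodepleted M-MDSC 002, 14 without KO untreated M-MDSC 001, 17 without KO untreated M-MDSC 002 and 40 without KO untreated M-MDSC 003, and 11 of the 34 were called in each of the 6 fits that left out 1 library.

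**Figure D2:**
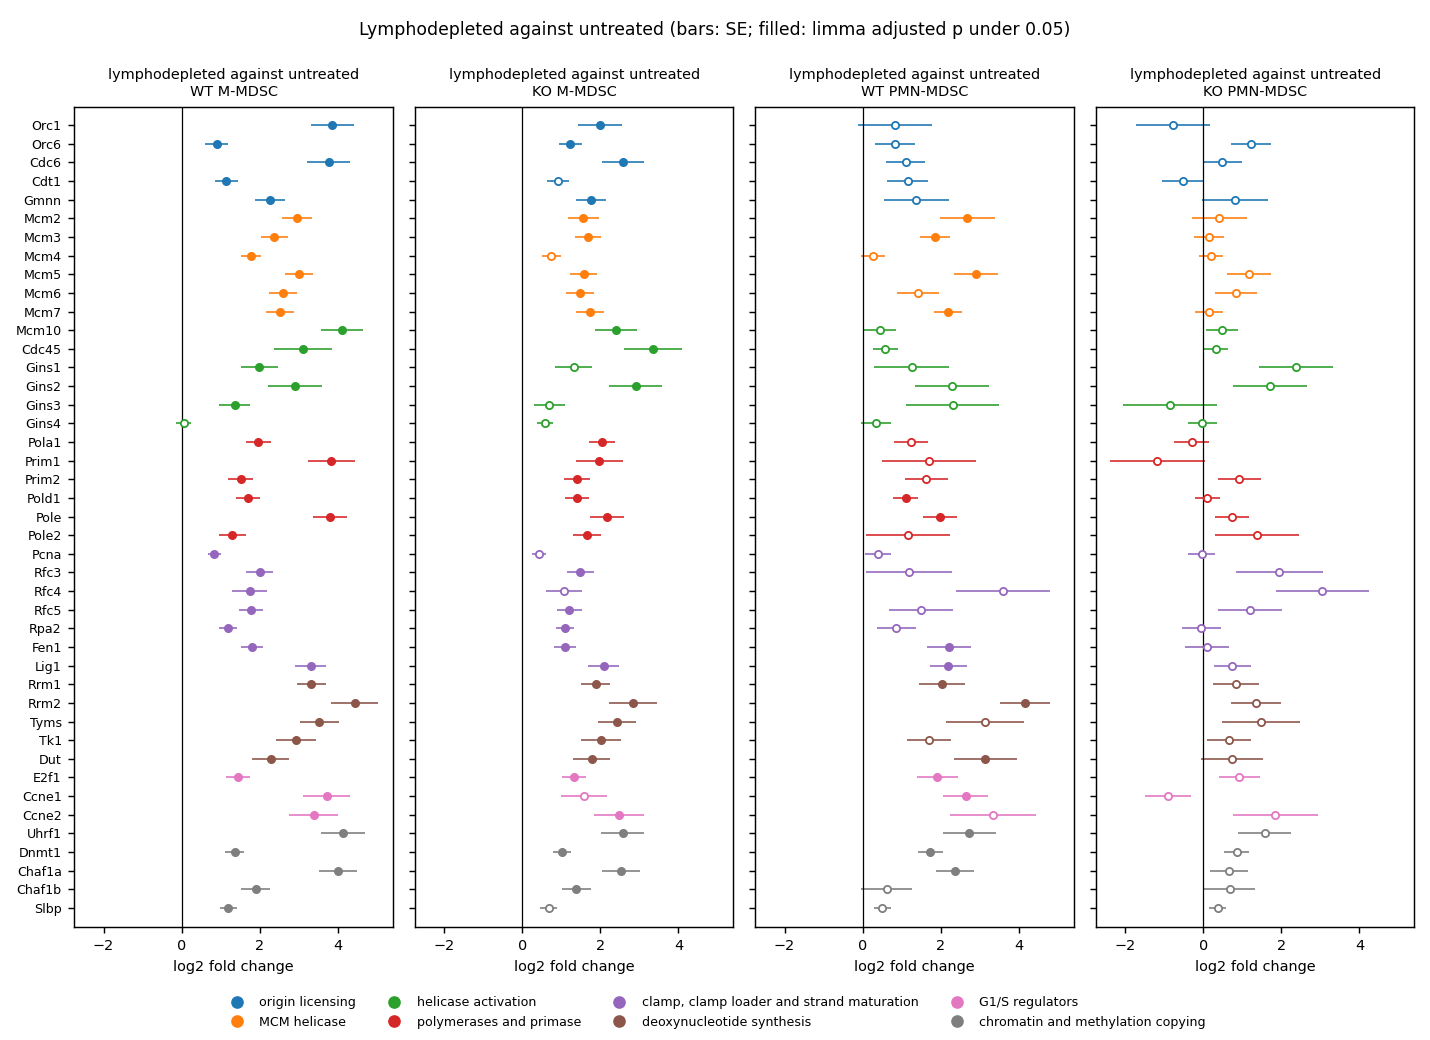
Log2 difference (lymphodepleted minus untreated) of each of the 43 members in 4 panels, M-MDSC and PMN-MDSC under the WT and KO labels; bars are SE from limma, colours are roles, and filled points passed an adjusted p of 0.05. Filled points number 42, 34, 16 and 0 in WT M-MDSCs, KO M-MDSCs, WT PMN-MDSCs and KO PMN-MDSCs.

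Origin licensing genes rose in M-MDSCs, all 5 under the WT label and 4 of 5 under the KO label. Cdt1, which brings the MCM ring to the origin (chr8:122568015-122573554, plus strand), stood at 85.6, 127 and 116 normalized counts in untreated WT-labelled M-MDSCs and 297, 164 and 284 after lymphodepletion. Cdt1 under the KO label stood at 125, 139 and 179 untreated and 178, 345 and 349 lymphodepleted. The WT-labelled groups did not overlap, while the lowest lymphodepleted KO library lay below the highest untreated one, at a log2 difference of 1.15 ± 0.29 (limma adjusted p = 0.0144) for WT and 0.92 ± 0.29 (limma adjusted p = 0.0535) for KO, the latter not past the threshold. Cdc6, the ATPase that loads the ring (chr11:98907801-98923940, plus strand), stood at 30.6, 14.2 and 13.2 untreated and 253, 222 and 299 lymphodepleted under the WT label. Cdc6 under the KO label stood at 37.3, 20.5 and 133 untreated and 171, 455 and 302 lymphodepleted. Neither pair overlapped, and KO untreated library 003 stood above its group; Cdc6 rose by 3.76 ± 0.54 (limma adjusted p = 3.55e-04) and 2.59 ± 0.54 (limma adjusted p = 0.00814). Orc1, the largest subunit of the origin recognition complex, had the lowest level per kilobase of any member in untreated WT-labelled M-MDSCs and rose by 3.86 ± 0.56 (limma adjusted p = 3.50e-04). Orc6 and Gmnn rose by 0.89 ± 0.29 (limma adjusted p = 0.047) and 2.26 ± 0.39 (limma adjusted p = 0.0012) under the WT label. Orc1, Orc6 and Gmnn also rose under the KO label, by 1.99, 1.23 and 1.77.

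All 6 MCM subunits rose in WT-labelled M-MDSCs, by 1.77 to 3.00, and 5 of 6 under the KO label. The 6 proteins form a ring in equal numbers. Mcm3 (chr1:20802968-20820312, minus strand) stood at 203, 265 and 152 untreated and 1033, 871 and 1266 lymphodepleted under the WT label, and Mcm6 (chr1:128331590-128359664, minus strand) at 174, 162 and 133 untreated and 1120, 696 and 1089 lymphodepleted. Mcm3 under the KO label stood at 314, 242 and 734 untreated and 914, 1669 and 1218 lymphodepleted, and Mcm6 at 310.4, 267 and 749 untreated and 687, 1471 and 1335 lymphodepleted. The groups were apart for Mcm3 under both labels; for Mcm6 the lowest lymphodepleted KO library lay below KO untreated 003. Mcm3 rose by 2.37 ± 0.34 (limma adjusted p = 3.55e-04) and 1.68 ± 0.34 (limma adjusted p = 0.00706), and Mcm6 by 2.60 ± 0.35 (limma adjusted p = 2.39e-04) and 1.48 ± 0.35 (limma adjusted p = 0.0154). Mcm4 did not pass under the KO label, at 0.75 ± 0.25 (limma adjusted p = 0.0673), against 1.77 ± 0.25 (limma adjusted p = 2.80e-04) under the WT label. Mcm2, Mcm5 and Mcm7 rose by 2.96, 3.00 and 2.52 under the WT label and by 1.57, 1.57 and 1.73 under the KO label.

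Of the 6 genes that activate the helicase, 5 rose in WT-labelled M-MDSCs and 3 in KO-labelled ones. Mcm10, which joins the helicase as it fires (chr2:4989714-5012791, minus strand), stood at 19.6, 16.7 and 17.0 untreated and 341, 253 and 381 lymphodepleted under the WT label, a rise of 4.10 ± 0.54 (limma adjusted p = 2.12e-04), 17.2-fold on this scale. Mcm10 under the KO label stood at 55.5, 23.8 and 192 untreated and 218, 539 and 332 lymphodepleted, a rise of 2.40 ± 0.54 (limma adjusted p = 0.0112). The untreated WT-labelled libraries were within 3 counts of each other, while KO untreated 003 lay close to the lowest lymphodepleted library. Cdc45, which sits in the working helicase (chr16:18780447-18811987, minus strand), stood at 39.3, 27.5 and 26.4 untreated and 249, 205 and 386 lymphodepleted under the WT label and at 25.5, 5.28 and 131 untreated and 208, 403 and 271 lymphodepleted under the KO label. It rose by 3.10 ± 0.74 (limma adjusted p = 0.0106) and 3.34 ± 0.74 (limma adjusted p = 0.0104), the latter from untreated libraries that spread from 5.28 to 131. The 4 GINS genes encode a single complex and differed among themselves: Gins2 rose by 2.90 ± 0.68 (limma adjusted p = 0.00988) and 2.90 ± 0.68 (limma adjusted p = 0.0142), while Gins4 (chr8:23226616-23237659, minus strand) stood at 155, 162 and 200.04 untreated and 179.7, 179 and 172 lymphodepleted under the WT label. Gins4 was the only member not called there, at 0.05 ± 0.20 (95% interval −0.38 to 0.47; limma adjusted p = 0.895). Gins1 and Gins3 rose by 1.99 and 1.36 under the WT label and differed by 1.32 (limma adjusted p = 0.0884) and 0.70 (limma adjusted p = 0.289) under the KO label. Gins2 shares 67.3% of its exon bases with Gse1 on the opposite strand, and the sources used here do not say whether reads were counted by strand, so the reads of such pairs cannot be told apart.

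**Figure D3:**
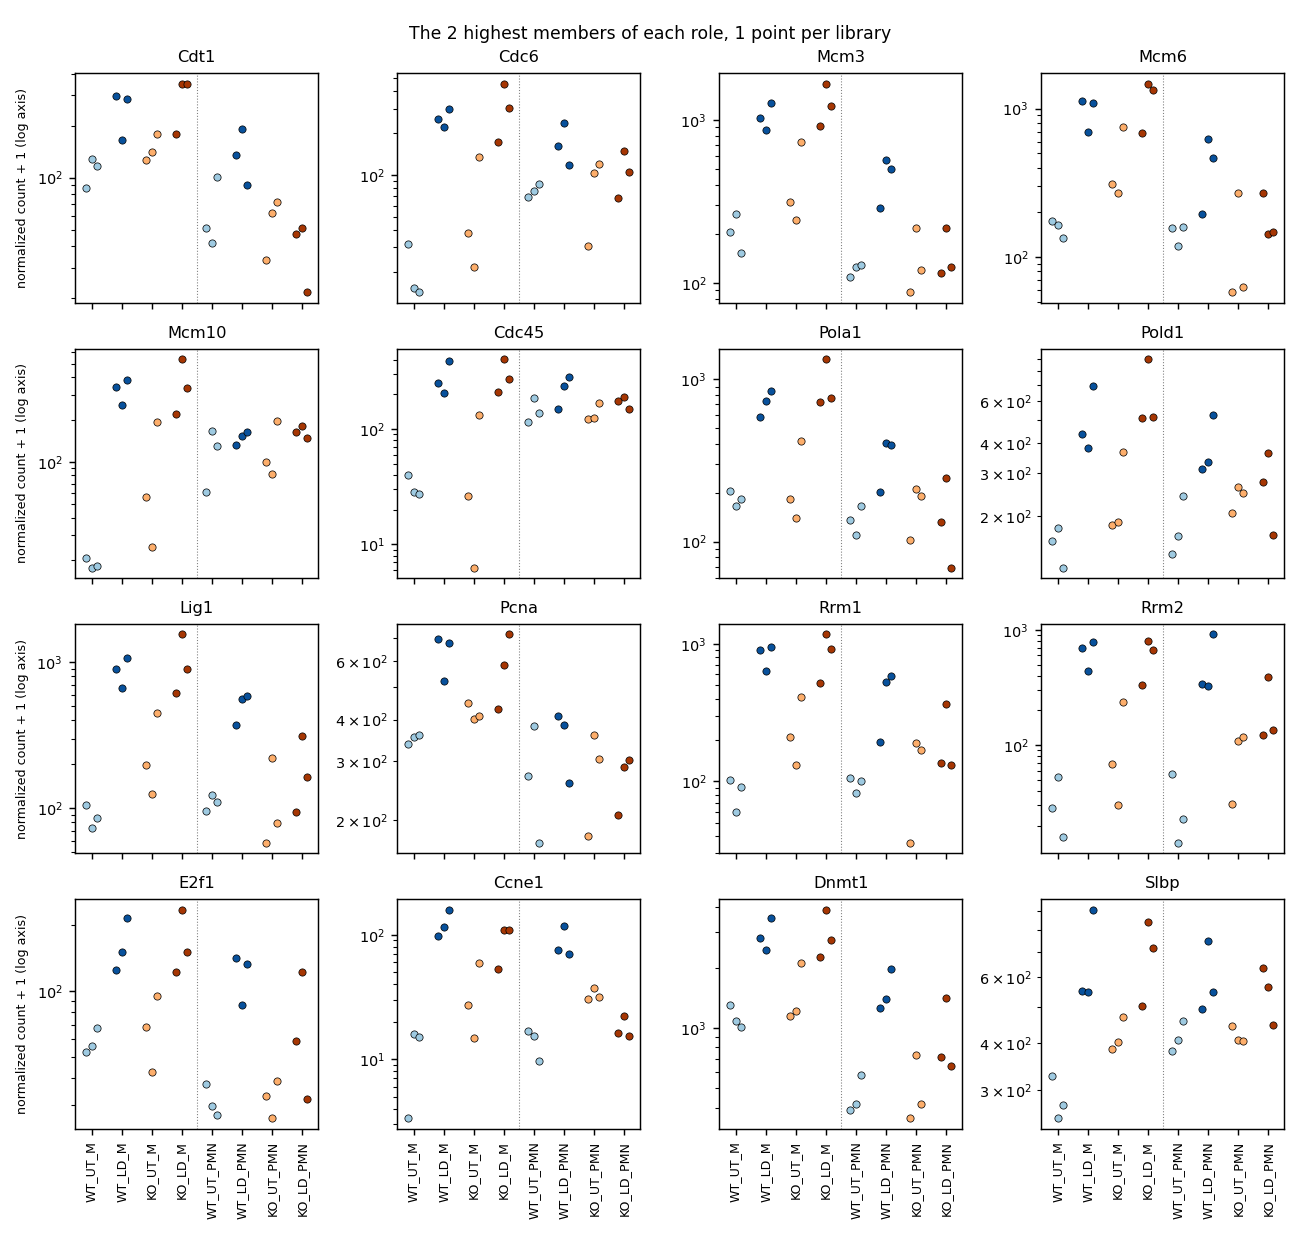
Normalized counts (plus 1, log axis) in every library of the 8 groups. The 16 members shown have the highest mean level in their role, 2 for each of 8 roles. Points are libraries, and a dotted line parts the cell types. Mcm10 in untreated WT-labelled M-MDSCs lies at 16.7 to 19.6 and after lymphodepletion at 253 to 381.

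The polymerases and primase rose in M-MDSCs, 6 of 6 under each label. Pola1, the catalytic subunit that starts each strand (chrX:93304767-93632155, minus strand), stood at 203, 166 and 183 untreated and 587, 737 and 849.9 lymphodepleted under the WT label and at 182, 139 and 415 untreated and 723, 1331 and 766 lymphodepleted under the KO label. Its groups did not overlap and its rises were nearly equal, 1.96 ± 0.33 (limma adjusted p = 0.00103) and 2.04 ± 0.33 (limma adjusted p = 0.00234). Pold1, the catalytic subunit of the polymerase of the lagging strand (chr7:44532746-44548849, minus strand), stood at 156, 177 and 121 untreated and 437, 383 and 694 lymphodepleted under the WT label. Pold1 under the KO label stood at 182, 188 and 367 untreated and 509, 896 and 512 lymphodepleted, again without overlap. It rose by 1.70 ± 0.30 (limma adjusted p = 0.0016) and 1.40 ± 0.30 (limma adjusted p = 0.00911). Pole, the catalytic subunit of the leading strand polymerase, rose by 3.81 ± 0.43 (limma adjusted p = 1.35e-04) and 2.17 ± 0.43 (limma adjusted p = 0.00648). Its accessory subunit Pole2 rose by 1.30 and 1.65, and the primase subunits Prim1 and Prim2 by 3.82 and 1.51 under the WT label and 1.97 and 1.40 under the KO label.

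All 7 clamp, loader and maturation genes rose in WT-labelled M-MDSCs and 5 of 7 under the KO label, with Pcna at the low end. Lig1, the ligase that joins Okazaki fragments (chr7:13277283-13311433, plus strand), stood at 104, 72.4 and 84.9 untreated and 889.7, 664 and 1074 lymphodepleted under the WT label and at 195, 124 and 451 untreated and 609, 1552 and 898 lymphodepleted under the KO label. Its groups were apart in both, and it rose by 3.30 ± 0.40 (limma adjusted p = 1.52e-04) and 2.09 ± 0.40 (limma adjusted p = 0.00539). Pcna, the sliding clamp, which also serves DNA repair (chr2:132249162-132253314, minus strand), stood at 337, 355 and 359.5 untreated and 695, 521 and 679 lymphodepleted under the WT label and at 448, 400.2 and 409.9 untreated and 428, 581 and 719.9 lymphodepleted under the KO label. Its WT-labelled groups were apart and its KO-labelled groups overlapped. Pcna rose by 0.84 ± 0.17 (limma adjusted p = 0.00425) under the WT label and did not pass under the KO label, at 0.43 ± 0.17 (95% interval 0.06 to 0.80; limma adjusted p = 0.129). The clamp loader subunits Rfc3, Rfc4 and Rfc5 rose by 1.997, 1.74 and 1.78 under the WT label. Rfc3 and Rfc5 rose by 1.49 and 1.21 under the KO label, where Rfc4 did not pass at 1.08 (limma adjusted p = 0.149). Rpa2, of the complex that coats single strands, rose by 1.18 and 1.10. Fen1, the flap nuclease, rose by 1.80 ± 0.28 (limma adjusted p = 5.95e-04) and 1.11 ± 0.28 (limma adjusted p = 0.0207), but 78.8% of its exon bases overlap Gm10143 on the opposite strand.

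The deoxynucleotide enzymes rose under both labels, 5 of 5. Rrm1 and Rrm2 encode the large and small subunits of ribonucleotide reductase, the enzyme that makes deoxynucleotides from ribonucleotides, and Rrm2 is the subunit limited to S phase. Rrm2 (chr12:24708241-24714146, plus strand) stood at 27.5, 52.5 and 15.1 untreated and 697, 441 and 790.5 lymphodepleted under the WT label, the steepest rise of any member at 4.43 ± 0.61 (limma adjusted p = 2.64e-04), 21.5-fold on this scale. Rrm2 under the KO label stood at 67.3, 29.1 and 237 untreated and 329, 799.7 and 669 lymphodepleted, a rise of 2.83 ± 0.61 (limma adjusted p = 0.00907). Neither pair of groups overlapped. Rrm1 (chr7:102441695-102469771, plus strand) stood at 100.5, 59.1 and 89.6 untreated and 905, 637 and 955 lymphodepleted under the WT label and at 208, 131 and 409 untreated and 521, 1177 and 922 lymphodepleted under the KO label. Rrm1 rose by 3.32 ± 0.37 (limma adjusted p = 1.28e-04) and 1.88 ± 0.37 (limma adjusted p = 0.00618), in separate ranges each time. Tyms, which makes thymidylate, Tk1, which salvages thymidine, and Dut, which clears dUTP, rose by 3.52, 2.92 and 2.28 under the WT label and by 2.43, 2.02 and 1.77 under the KO label.

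The 3 regulators of the G1 to S transition rose under the WT label and 2 of them under the KO label. E2f1, a transcription factor that switches on S-phase genes (chr2:154559407-154569892, minus strand), stood at 51.8, 55.0 and 67.0 untreated and 123, 149 and 214 lymphodepleted under the WT label and at 67.3, 41.6 and 93.8 untreated and 122, 235 and 150.2 lymphodepleted under the KO label. All lymphodepleted libraries lay above the untreated ones, with rises of 1.44 ± 0.32 (limma adjusted p = 0.00664) and 1.33 ± 0.32 (limma adjusted p = 0.0149). Ccne1, cyclin E1 (chr7:38097984-38107534, minus strand), stood at 2.36, 14.99 and 14.2 untreated and 97.6, 115 and 159 lymphodepleted under the WT label and at 26.1, 13.9 and 58.5 untreated and 52.2, 109 and 109 lymphodepleted under the KO label. It rose by 3.71 ± 0.60 (limma adjusted p = 7.52e-04) in the former; in the latter, where KO untreated 003 lay above the lowest lymphodepleted library, the difference was 1.58 ± 0.60 (limma adjusted p = 0.105). Ccne2, cyclin E2, rose by 3.38 and 2.48.

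Genes that copy chromatin and methylation rose in M-MDSCs, 5 of 5 under the WT label and 4 of 5 under the KO label, from very different starting levels. Dnmt1, the maintenance DNA methyltransferase (chr9:20907209-20959888, minus strand), stood at 1297, 1087 and 1016 untreated and 2803, 2440 and 3533 lymphodepleted under the WT label and at 1148, 1214 and 2105 untreated and 2252, 3905 and 2762 lymphodepleted under the KO label. It was already the member with the most counts before treatment and rose by 1.36 ± 0.24 (limma adjusted p = 0.00142) and 1.02 ± 0.24 (limma adjusted p = 0.0138) without overlap. Uhrf1, which brings Dnmt1 to newly copied DNA (chr17:56303321-56323486, plus strand), stood at 48.7, 49.1 and 39.6 untreated and 841, 596 and 1068 lymphodepleted under the WT label, a rise of 4.12 ± 0.56 (limma adjusted p = 2.36e-04). Uhrf1 under the KO label stood at 127, 50.2 and 446 untreated and 533, 1273 and 898 lymphodepleted, a rise of 2.57 ± 0.56 (limma adjusted p = 0.00933). Slbp, which binds the histone mRNA stem-loop (chr5:33634952-33652574, minus strand), stood at 326, 252 and 274 untreated and 549, 547 and 905 lymphodepleted under the WT label and rose by 1.20 ± 0.21 (limma adjusted p = 0.00171). Slbp under the KO label stood at 385, 403 and 469 untreated and 502, 840.2 and 713 lymphodepleted, a difference of 0.68 ± 0.21 that did not pass (limma adjusted p = 0.0555). Chaf1a, a subunit of the histone chaperone CAF-1, rose by 4.01 ± 0.49 (limma adjusted p = 1.52e-04) under the WT label, and 52.5% of its exon bases overlap Ubxn6 on the opposite strand. Its partner subunit Chaf1b rose by 1.90 and 1.39.

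Markers of immature myeloid cells rose in the same WT-labelled M-MDSC libraries, and fewer of them passed under the KO label. The summed level of 6 primary granule genes (Mpo, Elane, Prtn3, Ctsg, Ms4a3, Prss57), which mark granulocyte and monocyte progenitors, was 47.1 to 118 in untreated and 4276 to 15170 in lymphodepleted WT-labelled M-MDSCs, with 6 of 6 called higher, and 225 to 7751 and 5138 to 13313 under the KO label, with 1 of 6 called higher. KO untreated M-MDSC 003 held the 7751. Under the KO label all 6 of these genes were higher at an unadjusted p below 0.05 (limma). Their median log2 difference was 6.26 under the WT label and 2.67 under the KO label. The interaction of label with lymphodepletion called 0 of the 6, with 4 lower at an unadjusted p below 0.05 (limma). Stem and progenitor genes (Kit, Cd34, Flt3, Myb, Prom1, Gata2) summed to 276 to 360 and 1215 to 1641 under the WT label (4 of 5 tested genes called higher) and to 479 to 1416 and 1571 to 2525 under the KO label (3 of 5). Under each label 4 of these 5 were higher at an unadjusted p below 0.05 (limma), and the interaction called 0. Neutrophil markers rose from 513 to 641 up to 3362 to 19607 under the WT label (3 of 6 called higher). Under the KO label they rose from 892 to 1320 up to 2453 to 8309 (2 of 6). The WT-labelled monocyte sum was 41676 to 54611 untreated and 48131 to 60433 lymphodepleted, with 0 of 6 genes called higher and 1 lower. B, T and NK cell marker sums were lower after lymphodepletion in both labels. Under the WT label 5 of 6 B cell, 1 of 6 T cell and 6 of 6 NK cell genes were called lower. Under the KO label 6 of 6 B cell, 4 of 6 T cell and 6 of 6 NK cell genes were called lower. Of 4 tested eosinophil and basophil genes 3 were called higher under the WT label (sums 2.36 to 15.8 untreated and 81.2 to 84.9 lymphodepleted) and 0 under the KO label (15.2 to 52.3 and 53.7 to 76.2), and of 7 macrophage and dendritic cell genes 2 (262 to 300 and 349.7 to 591) and 0 (492 to 584 and 435 to 621). The 1 erythroid gene tested was not called under either label. The part of these cells in the members' rise was not tested.

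In PMN-MDSCs lymphodepletion gave calls under the WT label only (limma). Of 43 members, 16 rose there (4.14% of the 12971 genes tested were called higher), 30 had all lymphodepleted libraries above all untreated ones (12% of all genes), and none fell. The members' median log2 difference was 1.69 against −0.20 over all genes, and 27 members had an unadjusted p below 0.05. Under the KO label limma called 0 members (0% of all genes were called higher), and edgeR and DESeq2 also called 0; 5 members had an unadjusted p below 0.05, all higher. The median was 0.68 against −0.07, and 7 members had all lymphodepleted libraries above all untreated ones against 6.03% of all genes. Both labels were also compared directly, by the interaction described further on, which called no member. The WT-labelled count fell to 3 without WT untreated PMN-MDSC 001, to 3 without 002 and to 9 without WT lymphodepleted PMN-MDSC 003, and Mcm7 and Rrm2 were called in each of the 6 fits without 1 library.

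The PMN-MDSC calls under the WT label lay in 6 of the 8 roles: 4 of 6 MCM genes, 2 of 6 polymerase genes, 2 of 7 clamp genes, 3 of 5 deoxynucleotide enzymes, 2 of 3 G1 to S regulators and 3 of 5 chromatin genes. The 5 licensing genes and the 6 helicase activation genes held none of the 16 calls. The called genes were Mcm2, Mcm3, Mcm5, Mcm7, Pole, Pold1, Fen1, Lig1, Rrm1, Rrm2, Dut, E2f1, Ccne1, Uhrf1, Chaf1a and Dnmt1. Rrm2 stood at 55.0, 13.2 and 21.8 untreated and 337, 327 and 917 lymphodepleted under the WT label, a rise of 4.15 ± 0.64 (limma adjusted p = 0.0065). All lymphodepleted values exceeded the untreated ones by far, although 1 of the 3 stood well above the other 2. Rrm2 under the KO label stood at 29.7, 109 and 117 untreated and 122, 388 and 135 lymphodepleted, a difference of 1.35 ± 0.64 (limma adjusted p = 0.49). Dut stood at 36.7, 3.60 and 41.4 untreated and 144, 217 and 159 lymphodepleted under the WT label (chr2:125247190-125258608, plus strand) and rose by 3.14 ± 0.80 (limma adjusted p = 0.0267). Its KO-labelled values were 24.7, 97.7 and 15.8 untreated and 51.0, 89.99 and 41.3 lymphodepleted, in overlapping ranges. Rrm1 stood at 104, 81.6 and 100.1 untreated and 193, 529.6 and 589 lymphodepleted under the WT label and rose by 2.04 ± 0.59 (limma adjusted p = 0.0389), with 34.6, 188 and 168 untreated and 135, 365 and 131 lymphodepleted under the KO label.

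Among the MCM genes, Mcm5 (chr8:75109569-75128439, plus strand) stood at 75.8, 42.0 and 54.4 in untreated and 337, 531 and 428 in lymphodepleted WT-labelled PMN-MDSCs and rose by 2.91 ± 0.57 (limma adjusted p = 0.0109). Its KO-labelled values were 22.3, 133 and 129 untreated and 211, 238 and 91.9 lymphodepleted, with a difference of 1.18 ± 0.57 (limma adjusted p = 0.499). Mcm3 stood at 108, 125 and 128 untreated and 289, 570.4 and 498 lymphodepleted under the WT label and rose by 1.85 ± 0.38 (limma adjusted p = 0.0116), while the KO-labelled values of 86.5, 217 and 119.7 untreated and 114, 215 and 125 lymphodepleted overlapped. Mcm6 stood at 157, 118 and 159 untreated and 193, 626 and 465 lymphodepleted under the WT label and did not pass, at 1.41 ± 0.53 (limma adjusted p = 0.0938), with 56.9, 269.9 and 62.3 untreated and 270.1, 141 and 148 lymphodepleted under the KO label. WT lymphodepleted PMN-MDSC 001 was the lowest of its group for all 3 of these MCM genes, and for 30 of the 43 members.

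Licensing and helicase activation genes ranged from a few counts to over 100 in untreated PMN-MDSCs. Under the WT label Gins2 stood at 3.67, 6.00 and 4.35, Gins1 at 7.34, 7.20 and 15.2, Gins3 at 2.45, 58.8 and 8.71 and Orc1 at 15.9, 15.6 and 4.35 there, with 1 Gins3 library apart from the other 2. Cdc6 stood at 68.5, 75.6 and 84.9 untreated and 161, 236 and 118 lymphodepleted under the WT label and at 29.7, 103 and 119 untreated and 67.3, 149 and 103 lymphodepleted under the KO label. Cdt1 stood at 50.2, 40.8 and 100.1 untreated and 135, 191 and 90.01 lymphodepleted, and at 32.1, 61.4 and 71.3 untreated and 45.9, 50.1 and 20.6 lymphodepleted. The Cdc6 ranges were apart under the WT label only, and neither gene passed under either label (lowest limma adjusted p = 0.156). Mcm10 stood at 59.9, 164 and 128 untreated and 132, 151 and 162 lymphodepleted under the WT label and at 98.9, 80.6 and 193 untreated and 161, 179 and 147 lymphodepleted under the KO label, in ranges that overlapped each time. Cdc45 stood at 115, 185 and 137 untreated and 148, 234 and 284 lymphodepleted, and at 121, 123 and 166 untreated and 174, 188 and 149 lymphodepleted. For Mcm10 the difference was 0.44 ± 0.41 (95% interval −0.42 to 1.30; limma adjusted p = 0.498) under the WT label, where the M-MDSC difference of the same gene was among the 3 largest.

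For the polymerases, Pola1 stood at 135, 108 and 165 untreated and 202, 404 and 394 lymphodepleted under the WT label and at 101, 209 and 191 untreated and 130.5, 245 and 68.1 lymphodepleted under the KO label; it did not pass (limma adjusted p = 0.0765 and 0.884). Pold1 stood at 138, 163 and 242 untreated and 311, 335 and 523 lymphodepleted and rose by 1.10 ± 0.32 under the WT label (limma adjusted p = 0.0411), with 205, 263 and 248 untreated and 275, 365 and 166 lymphodepleted under the KO label. The WT-labelled ranges were apart for both genes, and the KO-labelled ranges overlapped. Lig1 stood at 94.2, 121 and 109 untreated and 372, 555 and 586 lymphodepleted and rose by 2.19 ± 0.47 (limma adjusted p = 0.0145), with 56.9, 221 and 78.2 untreated and 93.8, 309.9 and 163 lymphodepleted under the KO label. Pcna stood at 270.4, 380.4 and 169.8 untreated and 408, 383 and 257 lymphodepleted, and at 178, 359.6 and 304 untreated and 206, 288 and 302 lymphodepleted under the KO label. The Pcna ranges overlapped under both labels, with a WT difference of 0.40 ± 0.34 (limma adjusted p = 0.461).

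Cyclin E1 after lymphodepletion lay above the untreated libraries under the WT label and below them under the KO label in PMN-MDSCs. Ccne1 stood at 15.9, 14.4 and 8.71 untreated and 73.8, 116 and 68.9 lymphodepleted under the WT label, a rise of 2.64 ± 0.58 (limma adjusted p = 0.015). Ccne1 under the KO label stood at 29.7, 36.3 and 30.7 untreated and 15.3, 21.2 and 14.4 lymphodepleted. The lymphodepleted values all lay below the untreated ones, an order held by 1 of 43 members and 1273 of the 12971 genes tested. The difference of −0.90 ± 0.58 did not pass (limma adjusted p = 0.656). E2f1 stood at 36.7, 28.8 and 26.1 untreated and 141, 85.3 and 131 lymphodepleted and rose by 1.91 ± 0.53 under the WT label (limma adjusted p = 0.0348), with 32.1, 25.2 and 37.6 untreated and 58.1, 121 and 31.0 lymphodepleted under the KO label. Dnmt1 stood at 389, 416 and 583 untreated and 1255, 1399 and 1974 lymphodepleted and rose by 1.73 ± 0.32 (limma adjusted p = 0.00867), with 354, 733 and 419 untreated and 714, 1411 and 647 lymphodepleted under the KO label. Slbp stood at 380.4, 408 and 457 untreated and 491, 746 and 546 lymphodepleted, and at 443, 408 and 404 untreated and 634, 564 and 447 lymphodepleted, and passed under neither label. Primary granule genes summed to 33.0 to 54.4 and 414 to 1415 in untreated and lymphodepleted WT-labelled PMN-MDSCs (3 of 6 called higher) and to 51.9 to 155 and 67.3 to 222 under the KO label (0 of 6). Stem and progenitor genes summed to 394 to 512 and 1803 to 3075, and to 368 to 873 and 719 to 2148. B cell genes summed to 854 to 988 untreated and 34.9 to 122 lymphodepleted under the WT label (6 of 6 called lower) and to 721 to 1549 and 46.7 to 125 under the KO label (2 of 6). Neutrophil genes summed to 43468 to 46383 and 46649 to 155129 under the WT label (2 of 6 called higher, 1 lower), with the 155129 in WT lymphodepleted PMN-MDSC 003, and 1 of 3 tested erythroid genes was called higher there. Genes detected numbered 15611 to 17863 untreated and 12495 to 13331 lymphodepleted under the WT label, and Malat1, a nuclear RNA, took 4.79% to 6.80% and 1.80% to 3.67% of reads. Under the KO label genes detected numbered 13329 to 17219 and 13388 to 15867, and Malat1 took 4.77% to 5.0% and 3.23% to 4.41%. The 6 primary granule genes all had an unadjusted p above 0.05 under the KO label. The part of such cells in these results was not tested.

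Other genes of the pathway gave both rises and falls. The lists hold 77 genes in 5 groups, and all 77 were tested. Of 33 other replication factors, 18 rose in WT-labelled M-MDSCs (median log2 difference 0.94), 15 in KO-labelled M-MDSCs (0.53), 7 in WT-labelled PMN-MDSCs (1.11) and 0 in KO-labelled PMN-MDSCs (0.29), and none fell. Dbf4 and Cdc7, the subunits of the kinase that fires origins, rose by 2.46 ± 0.32 (limma adjusted p = 2.12e-04) and 2.89 ± 0.41 (limma adjusted p = 3.14e-04) in WT-labelled M-MDSCs, and Clspn, a fork protein, by 3.62 ± 0.49 (limma adjusted p = 2.45e-04). Clspn also rose in KO-labelled M-MDSCs, by 2.88 ± 0.49 (limma adjusted p = 0.00312), and in WT-labelled PMN-MDSCs, by 1.79 ± 0.36 (limma adjusted p = 0.0113). Ticrr, which helps fire origins, rose by 2.79 ± 0.48 (limma adjusted p = 0.00781) in the latter.

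The 8 other deoxynucleotide enzymes went in both directions. In WT-labelled M-MDSCs Dtymk, thymidylate kinase, rose by 1.54 ± 0.29 (limma adjusted p = 0.00215), and Samhd1, which breaks down deoxynucleotides, fell, at −0.64 ± 0.20 (limma adjusted p = 0.0398). WT-labelled PMN-MDSCs had 1 rise, Dtymk at 2.11 ± 0.61 (limma adjusted p = 0.0397), and 2 falls, Samhd1 at −1.11 ± 0.33 (limma adjusted p = 0.045) and Dck, deoxycytidine kinase, at −1.38 ± 0.28 (limma adjusted p = 0.0113). Of 15 genes of de novo purine and pyrimidine synthesis, 6 rose in WT-labelled M-MDSCs, 3 in KO-labelled M-MDSCs and 0 in either PMN-MDSC comparison by limma, where 2 under the WT label were higher at an unadjusted p below 0.05 and edgeR and DESeq2 each called 1. Ctps, CTP synthase, rose by 1.55 ± 0.27 (limma adjusted p = 0.00143) and Impdh2, of guanine nucleotide synthesis, by 0.79 ± 0.20 (limma adjusted p = 0.0143) in WT-labelled M-MDSCs.

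Among 13 other regulators of the G1 to S transition, 7 rose and 2 fell in WT-labelled M-MDSCs, 6 rose in KO-labelled M-MDSCs, and 5 rose and 1 fell in WT-labelled PMN-MDSCs. The repressors E2f7 and E2f8, themselves made in S phase, rose by 4.46 ± 0.69 (limma adjusted p = 5.62e-04) and 3.24 ± 0.47 (limma adjusted p = 3.51e-04) in WT-labelled M-MDSCs. The falls were Cdkn1b, the inhibitor p27, at −0.57 ± 0.15 (limma adjusted p = 0.019), and Rbl2, the pocket protein of resting cells, at −0.32 ± 0.10 (limma adjusted p = 0.0325). Cdkn1b also fell in WT-labelled PMN-MDSCs, at −0.97 ± 0.28 (limma adjusted p = 0.038). Of 8 other chromatin factors tied to replication, 7 rose in WT-labelled M-MDSCs, 6 in KO-labelled M-MDSCs, 4 in WT-labelled PMN-MDSCs and 0 in KO-labelled PMN-MDSCs; Asf1b, a histone chaperone, rose by 4.52 ± 0.54 (limma adjusted p = 1.52e-04) in the first. The 12 mitosis genes gave 12, 12, 11 and 0 rises in the same order, with medians of 4.63, 2.94, 3.17 and 1.79, against 2.28, 1.58, 1.69 and 0.68 for the members. In KO-labelled PMN-MDSCs limma and edgeR called no gene of these 6 lists; at an unadjusted p below 0.05, 6 replication factors, 4 regulators, 2 chromatin factors and 9 mitosis genes were higher, and DESeq2 called 1, 3, 0 and 1 of them.

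Calls of members between the genotype labels were few, and limma made them in untreated M-MDSCs only. In untreated M-MDSCs 6 members were higher under the KO label and none lower (limma; 2.24% of all genes were called higher), with a members' median of 0.72 against 0.01 over all genes; 22 members had an unadjusted p below 0.05, edgeR called 7 and DESeq2 17. The 6 were Tyms, Pole, Rrm1, Mcm5, Mcm6 and Mcm4. Tyms (chr5:30058202-30073617, minus strand) stood at 16.5, 6.66 and 15.1 under the WT label and 43.8, 27.1 and 116 under the KO label, a difference of 2.03 ± 0.49 (limma adjusted p = 0.038). Pole (chr5:110286306-110337474, plus strand) stood at 40.0, 27.5 and 31.1 and 78.4, 69.3 and 291, a difference of 1.81 ± 0.43 (limma adjusted p = 0.0358). Rrm1, whose values are given above, differed by 1.45 ± 0.37 (limma adjusted p = 0.0452), and the labels did not overlap for any of these 3 genes. KO untreated M-MDSC 003 held the highest value of its group for 42 of the 43 members. The members' median difference was 0.43 without it, and leaving out 1 library at a time gave 16 calls without KO untreated M-MDSC 002 and 0 in each of the other 5 fits. NK cell markers summed to 1385 to 1644 under the WT label and 5292 to 7918 under the KO label in the same libraries (6 of 6 called higher), T cell markers to 195 to 305 and 768 to 1236 (4 of 6), and 3 of 6 primary granule genes were called higher. Their part in the result was not tested.

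After lymphodepletion no member differed between labels in M-MDSCs. Limma, edgeR and DESeq2 each called 0 of 43 (limma called 0.207% of all genes), no member had an unadjusted p below 0.05, and the median was 0.08 against 0.01. For Dnmt1 the 95% interval of the difference ran from −0.51 to 0.51, for Rrm2 from −1.47 to 1.15 and for Mcm3 from −0.50 to 0.97, so a difference of 1 log2 unit lies within the interval for Rrm2 and outside those for Dnmt1 and Mcm3. The interaction of label with lymphodepletion called 0 members in M-MDSCs (0.00864% of all genes; edgeR and DESeq2 0), with 12 members lower at an unadjusted p below 0.05 and a median of −0.67. The smallest adjusted p were those of Mcm4 at −1.03 ± 0.35 (limma adjusted p = 0.337), Mcm5 at −1.43 ± 0.50 (limma adjusted p = 0.341) and Rrm1 at −1.44 ± 0.52 (limma adjusted p = 0.348). Mcm4 in M-MDSCs stood at 222, 175 and 203 untreated and 762, 539 and 778 lymphodepleted under the WT label and at 368, 301 and 511 untreated and 429, 814 and 769 lymphodepleted under the KO label.

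In PMN-MDSCs the labels could not be separated for any member by limma. Untreated, 0 members were called (0.00771% of all genes; edgeR and DESeq2 0), 3 were higher at an unadjusted p below 0.05, and the median was 0.05. Lymphodepleted, 0 were called (0.0154% of all genes), 15 were lower under the KO label at an unadjusted p below 0.05, edgeR called 0 and DESeq2 2, and the median was −1.07 against 0.04 over all genes. The interaction called 0 members (0% of all genes), with 13 lower at an unadjusted p below 0.05, edgeR 0, and a median of −0.997 against 0.10. DESeq2 called 2 in the interaction, Mcm7 and Ccne1. Ccne1 had an interaction of −3.54 ± 0.82 (limma adjusted p = 0.536), Mcm7 of −2.04 ± 0.50 (limma adjusted p = 0.536) and Fen1 of −2.12 ± 0.79 (limma adjusted p = 0.567). Mcm7 (chr5:138164583-138172422, minus strand) stood at 89.3, 97.2 and 102 untreated and 269.6, 623 and 512 lymphodepleted under the WT label and at 136, 269 and 212 untreated and 222, 293 and 163 lymphodepleted under the KO label. Fen1 stood at 66.1, 22.8 and 78.4 untreated and 141, 269 and 328 lymphodepleted, and at 47.0, 126 and 79.2 untreated and 41.8, 111 and 122 lymphodepleted. So the WT-labelled calls and the absence of KO-labelled calls in PMN-MDSCs were not shown to differ. These comparisons share groups with the lymphodepletion comparisons and are not independent of them.

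The 2 cell types were close in untreated WT-labelled mice and far apart in lymphodepleted KO-labelled mice. Untreated WT-labelled M-MDSCs had 1 member higher than PMN-MDSCs (22.2% of the 13457 genes tested were called higher) and 5 lower (28.3%), with a median log2 difference of 0.39. The higher member was Dnmt1, at 1.31 ± 0.30 (limma adjusted p = 0.00106). The lower members were Mcm10 at −2.55 ± 0.51 (limma adjusted p = 2.47e-04), Cdc45 at −2.19 ± 0.61 (limma adjusted p = 0.00507) and Cdc6 at −2.02 ± 0.56 (limma adjusted p = 0.00454), with Pole and Slbp at −1.24 and −0.55. All 3 of the first belong to licensing or helicase activation, and none of their M-MDSC libraries reached the lowest PMN-MDSC library. In lymphodepleted WT-labelled mice 6 members were higher in M-MDSCs and 0 lower, with a median of 0.85 (19.4% of all genes were called higher and 2678 of 13457 lower). The 6 were Mcm6 at 1.30 ± 0.49 (limma adjusted p = 0.0383), Mcm3 at 1.26 ± 0.37 (limma adjusted p = 0.00919) and Pola1 at 1.17 ± 0.41 (limma adjusted p = 0.0268), then Dnmt1, Pcna and Mcm4. That count fell to 1 without WT lymphodepleted M-MDSC 003, to 1 without WT lymphodepleted PMN-MDSC 001 and to 3 without WT lymphodepleted M-MDSC 001.

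**Figure D4:**
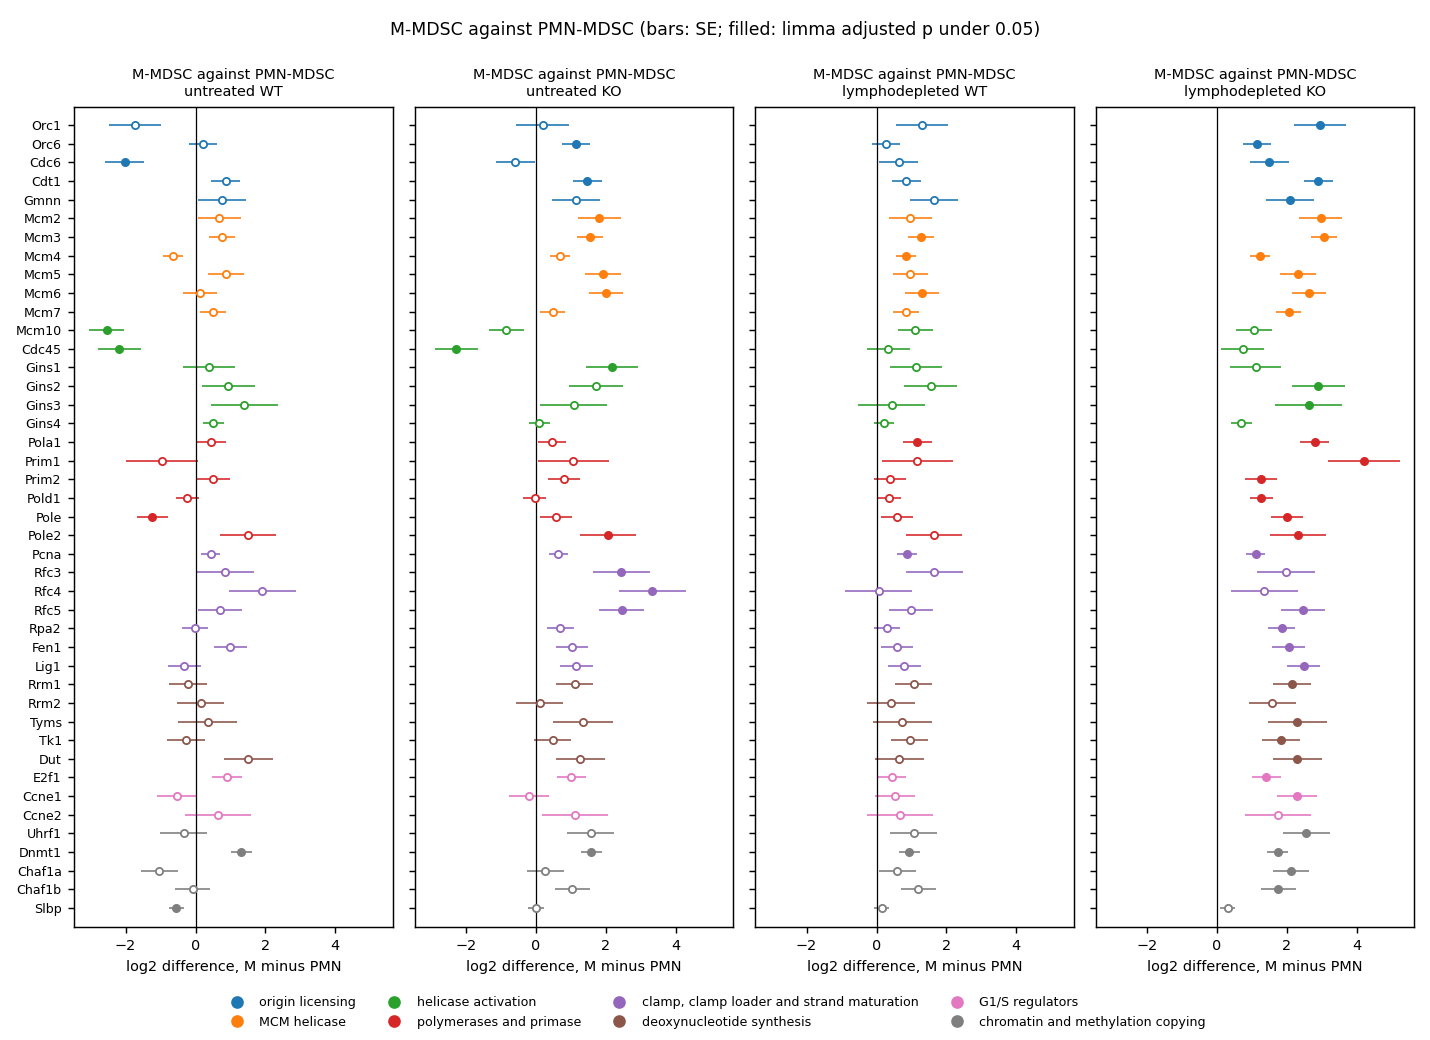
Log2 difference (M-MDSC minus PMN-MDSC) of each of the 43 members in 4 panels, untreated and lymphodepleted mice under the WT and KO labels; bars are SE from limma, colours are roles, and filled points passed an adjusted p of 0.05. Filled points to the right of 0 number 1 in untreated WT, 6 in lymphodepleted WT, 12 in untreated KO and 34 in lymphodepleted KO mice.

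Under the KO label 12 members were higher in untreated M-MDSCs than in PMN-MDSCs (20.3% of all genes were called higher) and 1 was lower (23.6%), with a median of 1.07. The largest were 3 subunits of the clamp loader: Rfc4 at 3.33 ± 0.96 (limma adjusted p = 0.00716), Rfc5 at 2.45 ± 0.63 (limma adjusted p = 0.00324) and Rfc3 at 2.44 ± 0.82 (limma adjusted p = 0.0191). Rfc4 (chr16:23113943-23127737, minus strand) stood at 30.1, 27.1 and 89.1 in M-MDSCs and 2.47, 21.2 and 0 in PMN-MDSCs, and Rfc3 (chr5:151642756-151651242, minus strand) at 25.5, 23.8 and 32.6 and 4.95, 22.2 and 0. Each had 1 PMN-MDSC library with no read, so few reads carry the difference. Cdc45 was the lower member, at −2.28 ± 0.61 (limma adjusted p = 0.00441), a call that edgeR did not make. Without KO untreated PMN-MDSC 002, the library highest in that group for the members on average, 21 members were called. In lymphodepleted KO-labelled mice 34 members were higher in M-MDSCs and 0 lower, with a median of 2.05 against 0.05 (23.8% of all genes were called higher and 3174 of 13457 lower). Prim1, the catalytic primase subunit (chr10:128015168-128030037, plus strand), stood at 71.2, 204 and 173 and 0, 55.2 and 6.19 and was higher by 4.21 ± 1.02 (limma adjusted p = 0.00166). Mcm3 was higher by 3.07 ± 0.37 (limma adjusted p = 4.71e-07), and Mcm2 (chr6:88883474-88898780, minus strand), at 429, 780.3 and 741 against 45.9, 128 and 85.7, by 2.96 ± 0.62 (limma adjusted p = 3.88e-04). The ranges of all 3 were apart.

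Whether lymphodepletion moved the members differently in the 2 cell types was tested as an interaction. Under the WT label 1 member passed (0.788% of all genes): Mcm10, whose M-MDSC rise exceeded its PMN-MDSC difference by 3.66 ± 0.72 (limma adjusted p = 0.016). Mcm4 and Cdc6 followed at 1.503 ± 0.40 (limma adjusted p = 0.0782) and 2.66 ± 0.79 (limma adjusted p = 0.112), and the members' median was 0.60 against 0.16 over all genes. The Mcm10 call was lost without WT lymphodepleted M-MDSC 003 or without WT untreated PMN-MDSC 002, at limma adjusted p of 0.0587 and 0.0592. Under the KO label 0 members passed (0.0966% of all genes), with 14 higher at an unadjusted p below 0.05, edgeR 0 and DESeq2 1, and a median of 1.03 against 0.06. Without KO untreated M-MDSC 003, 2 members passed. The smallest adjusted p there were those of Pola1 at 2.34 ± 0.58 (limma adjusted p = 0.167), Cdc45 at 3.02 ± 0.87 (limma adjusted p = 0.278) and Ccne1 at 2.48 ± 0.81 (limma adjusted p = 0.359). Of the other lists, de novo purine and pyrimidine synthesis had 7 of 15 genes higher and 2 lower in M-MDSCs of untreated WT mice. The counts were 11 and 0 in lymphodepleted WT, 10 and 0 in untreated KO and 14 and 0 in lymphodepleted KO mice. The 13 other G1 to S regulators had 2 higher and 3 lower in each of these comparisons.

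Levels per kilobase of exon, in normalized counts, put Dnmt1 first in 6 of the 8 groups and Pcna first in untreated PMN-MDSCs of both labels. In untreated WT-labelled M-MDSCs Dnmt1 stood at 154 ± 19.8 per kilobase (SD, n = 3), Pcna at 146 ± 4.99 and Gins4 at 128 ± 17.9, of which the first 2 differed by less than the spread of Dnmt1, followed by Mcm4 at 55.7 ± 6.63. After lymphodepletion the order there was Dnmt1 at 397 ± 75.5, Mcm3 at 282 ± 52.9, Pcna at 263 ± 40.0 and Rrm2 at 232 ± 65.3, with Orc1 last at 14.1 ± 0.282. In untreated WT-labelled PMN-MDSCs Pcna stood at 114 ± 43.9, Gins4 at 90.1 ± 18.9 and Mcm4 at 87.1 ± 3.64, and Gins2 was last at 1.14 ± 0.292. The MCM subunits, which work in equal numbers, were not equal in RNA: Mcm2 was lowest per kilobase in all 8 groups and Mcm3 or Mcm4 highest, by 2.52 times in lymphodepleted WT-labelled PMN-MDSCs and 12.9 times in untreated ones. Exon length is the union of annotated exons, so a gene with a long, little-used exon reads low on this scale.

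**Figure D5:**
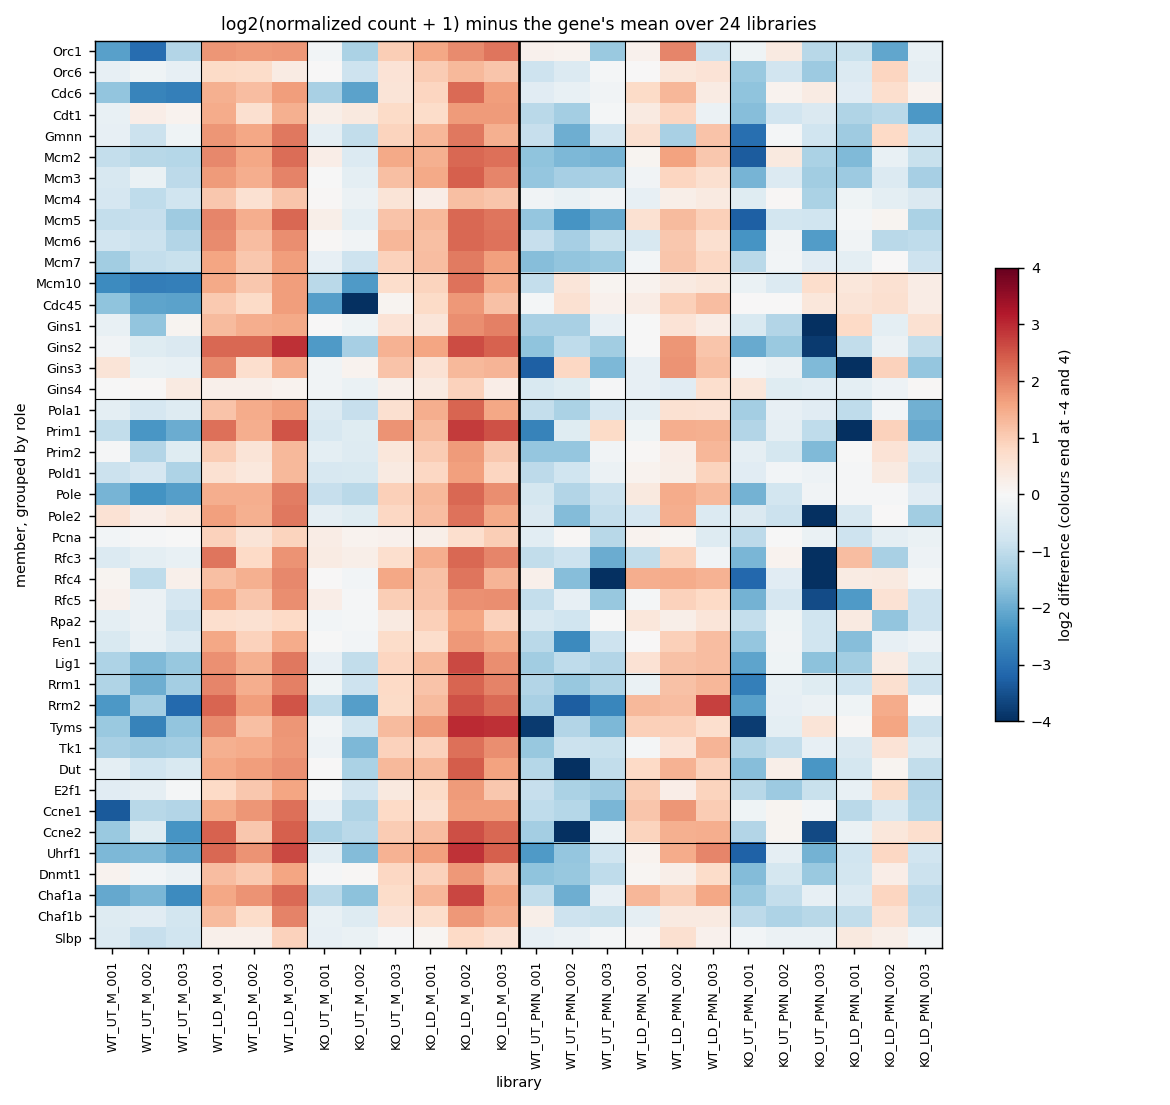
Deviation of each of the 43 members (rows, by role) from its own mean log2(normalized count + 1) over the 24 libraries (columns, by group), with colours ending at −4 and 4 log2 units. Lymphodepleted M-MDSC libraries and KO untreated M-MDSC 003 lie above the mean for most rows, and the other untreated libraries below it for most rows. WT lymphodepleted PMN-MDSC 002 and 003 also lie above the mean for many rows, such as Mcm2 and Mcm3.

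Within a group, single libraries stood apart across many members, more so in M-MDSCs. As a description over 12 libraries, which share depth and size factor across genes, the correlation of a member's deviations from its group means with the mean of the other members had a median of 0.88 in M-MDSCs (range 0.37 to 0.98) and 0.48 in PMN-MDSCs (range −0.17 to 0.96). Averaged over the 43 members, the log2 deviation from the group mean was 0.94 in KO untreated M-MDSC 003 and −0.69 in KO untreated M-MDSC 002, −0.52 and 0.45 in KO lymphodepleted M-MDSC 001 and 002, 0.67 in KO untreated PMN-MDSC 002, 0.54 in KO lymphodepleted PMN-MDSC 002 and −0.43 in WT lymphodepleted PMN-MDSC 001. KO lymphodepleted M-MDSC 001 held the lowest value of its group for 41 members and 002 the highest for 36, and KO untreated M-MDSC 002 the lowest for 34. These shared deviations mean that the 43 members are not 43 separate readings of a group. Rn45s took 19.8% of reads in KO lymphodepleted M-MDSC 001, 16.3% in KO lymphodepleted M-MDSC 002 and 18.0% in WT lymphodepleted PMN-MDSC 001. The part of ribosomal RNA and depth in the deviations was not tested.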

How the data were processed

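The 24 libraries came from sorted M-MDSCs and PMN-MDSCs in 8 groups of 3, grouped by the sample titles. The deposited values are normalized read counts, a signal in which each library's counts were divided by 1 factor; every value was a whole number of reads (within 0.001 reads) once that factor was recovered. Per the submitters' processing notes, the tools were STAR 2.5.3a, HTSeq 0.6.1 and DESeq2 on mm10; the sources used here do not give the DESeq2 version, the annotation, the strand setting or any filter. The members and all gene lists were chosen with earlier results of these data known.

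Values were tested with limma 3.58.1 (R 4.3.3, mean-variance trend) on log2(normalized count + 1), over genes with at least 10 normalized counts in at least 3 fitted libraries, with Benjamini-Hochberg adjustment over all genes and a threshold of 0.05. Comparisons within a cell type used its 12 libraries, and those between cell types all 24. The pseudocount makes fold changes of low genes smaller than they are. The numbers of reads in the report limit precision. Each SE and p-value rests on a spread per gene that is pooled over all groups of the fit, with 3 libraries a group. They do not measure the spread of the compared groups alone. Alternatives were pseudocounts of 0.5 and 5, no filter, and counts of recovered reads with edgeR 4.0.16 (TMM) or DESeq2 1.42.0. Further ones were a block, leaving out each library, and leaving out the 3 PMN-MDSC libraries of lowest depth. Within a cell type the block was the replicate number. Between cell types, libraries of the same label, treatment and number were paired as if from the same mouse, which the labels do not say. Only the limma fit was run on simulated data, for lymphodepletion in WT-labelled M-MDSCs and PMN-MDSCs, and no result here draws support from it. Values per library are given for the 2 members of each role with the highest mean; per comparison also the 3 largest called changes each way and, in interactions, the 3 smallest adjusted p. From other lists up to 3 called genes with the smallest adjusted p were taken, and those called against their list. The result of 1 listed gene is not reported here. The marker lists covered monocytes, neutrophils, primary granule progenitors, stem and progenitor cells, B, T and NK cells, erythroid cells, eosinophils and basophils, and macrophages and dendritic cells; Hba-a1, Hba-a2, Hbb-bs and Hbb-bt were listed at 0 in all 24 libraries. Gene coordinates are those of GENCODE on GRCm38 (mm10), and promoters those of RefSeq on GRCm38.p6.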

Additional observations from a re-analysis of the deposited data

Results flagged for a closer look

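The effect of lymphodepletion on Mcm10 differed between the cell types of WT-labelled mice, by a test of the difference itself. M-MDSC libraries stood at 19.6, 16.7 and 17.0 untreated and 341, 253 and 381 lymphodepleted, and PMN-MDSC libraries at 59.9, 164 and 128 untreated and 132, 151 and 162 lymphodepleted, an interaction of 3.66 ± 0.72 log2 units (limma adjusted p = 0.016). Over 19 alternatives the value ran from 3.36 to 4.08, with adjusted p from 1.19e-04 to 0.0592, and it passed in 17 of them.

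Ccne1 in PMN-MDSCs was arranged in opposite ways under the 2 genotype labels: all lymphodepleted WT-labelled libraries lay above all untreated ones, and all lymphodepleted KO-labelled libraries lay below, although the KO-labelled difference of −0.90 ± 0.58 did not pass (limma adjusted p = 0.656). All lymphodepleted KO-labelled libraries lay below all untreated ones for 1 of the 43 members and for 1273 of the 12971 genes tested. The interaction was −3.54 ± 0.82 log2 units and did not pass (limma adjusted p = 0.536). Over 19 alternatives it ran from −3.70 to −3.10, with adjusted p from 0.0106 with DESeq2 to 0.839, and DESeq2 was the only alternative in which it passed. Il6 reads in these libraries ran against the labels, so the direction is between labels.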

How the results depend on the processing

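Counts below are of members called, with the reported count first. Leaving out 1 library at a time gave 36 to 41 for lymphodepletion in WT-labelled M-MDSCs (42), 11 to 40 in KO-labelled M-MDSCs (34) and 3 to 19 in WT-labelled PMN-MDSCs (16). It gave 0 to 16 for the labels in untreated M-MDSCs (6). Between cell types it gave 4 to 8 in untreated WT (6), 1 to 9 in lymphodepleted WT (6), 9 to 21 in untreated KO (13) and 26 to 35 in lymphodepleted KO mice (34), and for the interactions of cell type with lymphodepletion 0 to 1 under WT (1) and 0 to 2 under KO (0). For the labels in untreated M-MDSCs the count was 0 with no filter and 17 with DESeq2. DESeq2 also gave 2 for the labels in lymphodepleted PMN-MDSCs and 2 for the interaction of label with lymphodepletion there (0 each), and 3 and 1 for the interactions of cell type with lymphodepletion under WT and KO. For the cell types of lymphodepleted WT mice a pseudocount of 5 gave 11, and leaving out the 3 PMN-MDSC libraries of lowest depth gave 2. The cause of these shifts was not tested. No named gene reversed: of its values under the alternatives, 1052 kept their side of the threshold, 119 lost it and 8 gained it. TMM scaling moved the median of all genes in WT-labelled PMN-MDSCs from −0.20 to −0.00, and the members' median there from 1.69 to 1.74. Depth limits the 19 members with a PMN-MDSC library under 10 reads, but without the 3 PMN-MDSC libraries of lowest depth lymphodepletion gave 17 under WT and 0 under KO, close to the reported counts.

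Correlations of deviations between same-numbered libraries ran from −0.23 to 0.22 over 18 pairs in M-MDSCs and from −0.18 to 0.24 over 18 in PMN-MDSCs. Between cell types they ran from −0.08 to 0.22 over 12 pairs. Libraries of different number were not compared, so these values cannot tell whether same-numbered libraries share a mouse or batch. Within a cell type, a block for the replicate number gave 2 calls for the labels in untreated M-MDSCs. For lymphodepletion it gave 41, 34 and 18, in the order above. Between cell types, same-numbered libraries of a label and treatment were fitted as pairs, as if from the same mouse. That fit gave 6, 7, 16 and 36 calls, in the order above, and 1 for the interaction of cell type with lymphodepletion under KO.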
